A study of Arabidopsis thaliana with 6 samples.

Results

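The NAC genes encode a large family of plant transcription factors, and 98 members of the family were followed here in rosettes grown in air with or without added nitric oxide (NO). Members were taken by name: a gene counted when its symbol or a synonym was NAC or ANAC with a number, found through the transcript that each probe's annotation gives. The rule found 100 genes, and 2 well studied regulators of leaf ageing, ORE1 (AT5G39610) and NAP (AT1G69490), were set aside. Of the 98 members 95 had a probe, out of 25383 genes with a probe in all. A test was possible for 67 of them, out of 18614 genes tested.

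NAC proteins carry a conserved N-terminal domain that binds DNA, named after NAM, ATAF and CUC, and a variable C-terminal part that activates or represses transcription. Some are made with a membrane anchor and reach the nucleus only after they are cut free. In leaves the family is best known for the control of ageing and of responses to drought, abscisic acid and jasmonate. In stems and veins it is known for switching on the secondary cell wall of fibres and water-conducting vessels.

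Wild-type Arabidopsis thaliana plants grew on soil mixed with sand in fumigation chambers, with days at 20 °C, nights at 16 °C and 80% relative humidity. The control plants were fumigated with ambient air and the treated plants with the same air plus 3 ppm NO, by day and by night, and whole rosettes were taken for RNA at 4 weeks. Each group held 3 arrays from biological experiments that the series describes as independent of each other, and Cy3-labelled cRNA of each sample was hybridised to an Agilent array of 1 colour. The sources used here do not say how much NO the ambient air itself carried. The titles number the arrays from 1 to 3 in each group, whereas the source names number the NO arrays from 2 to 4, and the title numbers are used below.

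Each array held 61657 gene spots, of which 65.2% to 66.8% were well above background in ambient air and 68.5% to 72.0% in NO. No spot was saturated. Pairs of arrays of the same group had a median absolute log2 difference of 0.0864 to 0.0918, and pairs across the groups one of 0.266 to 0.285. All 3 ambient arrays lay on 1 slide and all 3 NO arrays on the other, each slide with a scan of its own, so slide, scan and treatment cannot be told apart in any value below. The leaf genes RBCS1A, LHCB1.3 and CA1 were well above background on every array and all higher in NO, CA1 by 11.9-fold, with a summed signal of 38100 to 42700 in ambient air and 70300 to 97500 in NO. All 4 seed genes (CRA1, OLE1, SESA1 and CRU3) and the root genes PIN2 and EXPA7 were not well above background on any array. Signals are given per probe on a linear scale on which each array's 75th percentile is 100, fold changes and log2 changes are NO against ambient, and ± is the standard error of the log2 change with n = 3 arrays a group. The number of arrays limits the precision, and levels of different genes are not compared, since each probe has its own brightness.

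Most tested NAC genes were lower in NO. In limma, with an adjusted p under 0.05 over all tested genes, 36 of the 67 NAC genes were lower, 14 were higher and 17 did not pass. With the background corrected by normexp, 32 were lower and 5 were higher. Without normexp, the 36 and 14 are 53.7% lower and 20.9% higher, beside 32.4% lower and 25.8% higher among all 18614 genes tested. Together 74.6% of the NAC genes passed, beside 58.2% of all genes. The median log2 change was -0.26 for the NAC genes, with a range of -1.21 to 1.06, and -0.05 for all tested genes. Most of the changes were small: 30 of the 50 calls were under 1.5-fold. By the fitted value, 20 NAC genes (29.9%) passed with a larger change, 11 of them lower and 9 higher. The 9 include VND3 (ANAC105), ANAC045 and ANAC096, which entered the test only through their NO arrays. For ANAC045 the measured rise is only a bound of 1.48-fold. Among all genes 18.8% passed with at least 1.5-fold, 7.3% lower and 11.5% higher. Fitted changes of at least 2-fold that passed were found in 8 of the 67 NAC genes and in 6.98% of all genes. The 8 again include ANAC045, whose bound is under 2-fold. The 3 arrays of one group lay wholly above the 3 of the other in 54 NAC genes (80.6%), beside 66.7% of all genes. Of the 54, 40 were lower in NO and 14 higher, beside 37.7% lower and 29% higher among all genes. The 14 include VND3, ANAC045 and ANAC096, whose gaps carry no weight, since only their NO arrays brought them into the test. Of the 67 tested NAC genes 61 were well above background on all 6 arrays, as were 95.7% of all tested genes. Of these 61, 35 were lower and 11 higher, beside 5936 lower and 4410 higher of 17808 such genes in all. The other genes called higher, VND3 (ANAC105), ANAC045 and ANAC096, entered the test only through their NO arrays. In whole leaves, fewer cells of a type and less RNA per cell cannot be told apart.

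Of the 14 NAC genes that rose, 8 were secondary wall genes. The lists of roles below, like the members, were drawn up with results of these data known, so their counts describe the lists and test nothing about them. In the lists of ATAF genes, of stress genes and of leaf ageing genes together, 13 of 17 tested members fell and none rose by the probe that stood for the gene, beside 32.4% lower and 25.8% higher of all genes. The exception among other probes was a second probe of ANAC047, at 0.29 (adjusted p = 0.040). Among the secondary wall genes 8 of 11 rose, VND3 being tested only through its NO arrays, and the list's repressor fell.

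**Figure D1:**
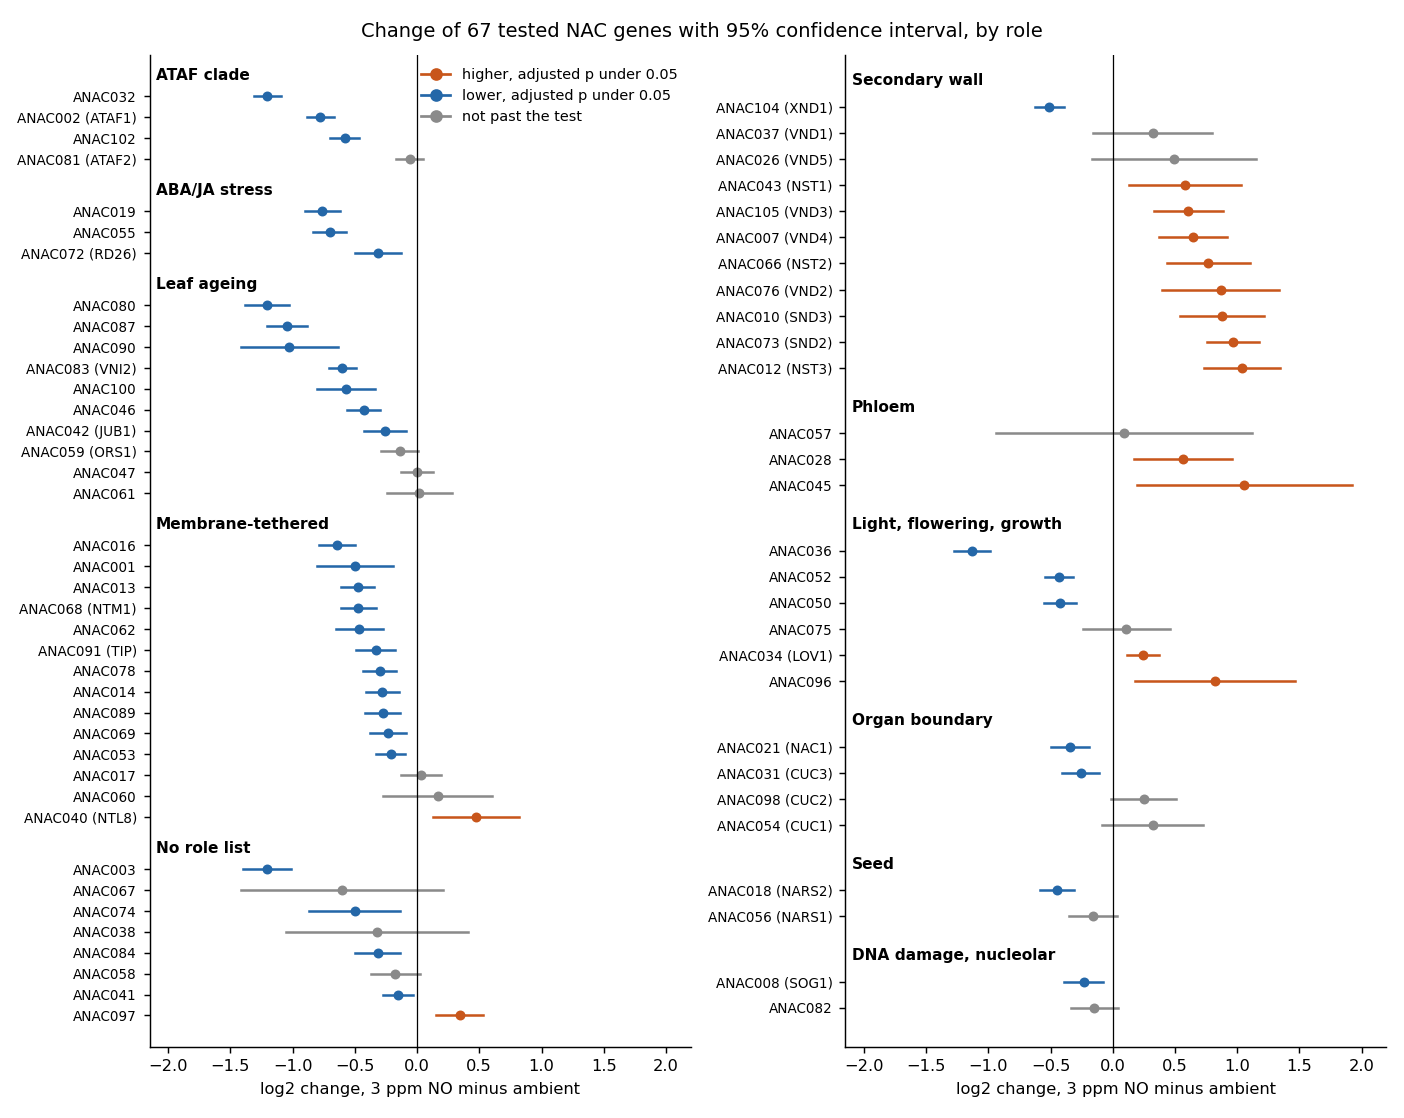
Log2 change between 3 ppm NO and ambient air (x axis) of the 67 tested NAC genes, by role (rows), as the fitted value (points) with its 95% confidence interval (lines); orange and blue points passed an adjusted p of 0.05 and grey points did not. The ATAF, stress and leaf ageing genes lie at or left of 0.02, and 10 of the 11 secondary wall genes lie right of it; for ANAC045 the fitted value is drawn, although its ambient level is only a bound.

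The ATAF genes code for stress-responsive factors that belong to the founding branches of the family. Of the 4, 3 fell and ATAF2 did not pass, beside 32.4% lower of all genes, with a list median log2 change of -0.68. ANAC032 (AT1G77450), a factor known to promote leaf ageing and to repress anthocyanin genes, gave 185, 186 and 194 in ambient air and 80.5, 82.9 and 81.5 in NO. Its change of -1.20 ± 0.05 was a fall of 2.30-fold, with the smallest adjusted p of the tested NAC genes (6.0e-06). Every NO array lay far below every ambient array, and the spread within a group was small beside the gap.

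ATAF1 (ANAC002, AT1G01720), which acts in abscisic acid responses and in ageing upstream of ORE1, gave 352, 366 and 358 in ambient air and 209.9, 212 and 205 in NO, a fall of 1.71-fold (log2 change -0.78 ± 0.05, adjusted p = 2.8e-05). Its other tested probes gave log2 changes of -0.77 and -0.69, and no probe of the gene rose. ANAC102 (AT5G63790), known from low-oxygen responses of seeds, gave 326, 328 and 345 against 227, 222 and 218, a fall of 1.498-fold (log2 change -0.58 ± 0.05, adjusted p = 0.00012). ATAF2 (ANAC081), known from wounding and pathogen responses, stood apart from the other ATAF genes. Its signals of 822, 797 and 821 in ambient air and 783, 778 and 778 in NO did not overlap, but the log2 change of -0.06 ± 0.04 did not pass (adjusted p = 0.27).

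All 3 members of the stress group fell, beside 32.4% of all genes, with a median log2 change of -0.70. These factors bind the promoter of the drought gene ERD1, and they act in abscisic acid and jasmonate responses. ANAC019 (AT1G52890) gave 524, 483 and 516 in ambient air and 286, 299 and 314 in NO, a fall of 1.70-fold (log2 change -0.76 ± 0.06, adjusted p = 8.9e-05). ANAC055 (AT3G15500) gave 49.1, 50.1 and 52.0 against 31.6, 29.3 and 32.1, a fall of 1.63-fold (log2 change -0.70 ± 0.06, adjusted p = 0.00010). In both genes the highest NO array lay well under the lowest ambient array. RD26 (ANAC072, AT4G27410) gave 167, 151 and 181 against 133, 139.7 and 128, a smaller fall (log2 change -0.32 ± 0.08, adjusted p = 0.013) that did not pass with normexp background correction (adjusted p = 0.085).

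Of 10 leaf ageing genes 7 fell and 3 did not pass, beside 32.4% lower of all genes, with a median log2 change of -0.50. The list holds factors that promote ageing and factors that delay it, and both kinds were among those that fell. ANAC080 (AT5G07680), a close relative of ORE1, gave 95.5, 101 and 108 in ambient air and 46.1, 40.4 and 45.6 in NO, a fall of 2.31-fold (log2 change -1.21 ± 0.08, adjusted p = 3.6e-05). Its 3 tested probes gave -1.21, -1.15 and -0.97. ANAC087 (AT5G18270), known to promote programmed cell death in the root cap, gave 92.8, 84.6 and 96.0 against 42.1, 44.7 and 45.5, a fall of 2.06-fold (log2 change -1.05 ± 0.07, adjusted p = 3.7e-05). In both genes every NO array was lower than every ambient array by far more than the spread within a group.

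ANAC090 (AT5G22380), which is known to hold ageing back, was dimmer and noisier. It gave 12.0, 12.8 and 13.5 in ambient air and 6.18, 4.98 and 8.02 in NO, a fall of 2.04-fold (log2 change -1.03 ± 0.16, adjusted p = 0.0020). With normexp background correction its log2 change was -0.59 and still passed. VNI2 (ANAC083, AT5G13180), which represses vessel formation by binding VND7 and also delays ageing, was bright throughout. It gave 3587, 3529 and 3525 against 2366, 2289 and 2361, a fall of 1.52-fold (log2 change -0.60 ± 0.04, adjusted p = 7.3e-05). ANAC100, another close relative of ORE1, and ANAC046, which activates chlorophyll breakdown genes, had log2 changes of -0.57 and -0.43 and passed. JUB1 (ANAC042), a hydrogen peroxide-induced factor that prolongs leaf life, was at -0.26 ± 0.07 (adjusted p = 0.018). It did not pass under 6 of 16 other settings, among them leaving out ambient array 1 or 2 or NO array 2 or 3 (adjusted p = 0.051 to 0.060). The 3 members that did not pass were ORS1 (ANAC059), a promoter of ageing, at -0.14, ANAC047 at 0.00 and ANAC061 at 0.02. For ANAC047 and ORS1 the call depends on the probe. A second tested probe of ANAC047 was at 0.29 and passed (adjusted p = 0.040), and of 2 further probes of ORS1 (ANAC059) 1 passed at -0.23 (adjusted p = 0.036) while the other, at -0.014, did not.

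**Figure D2:**
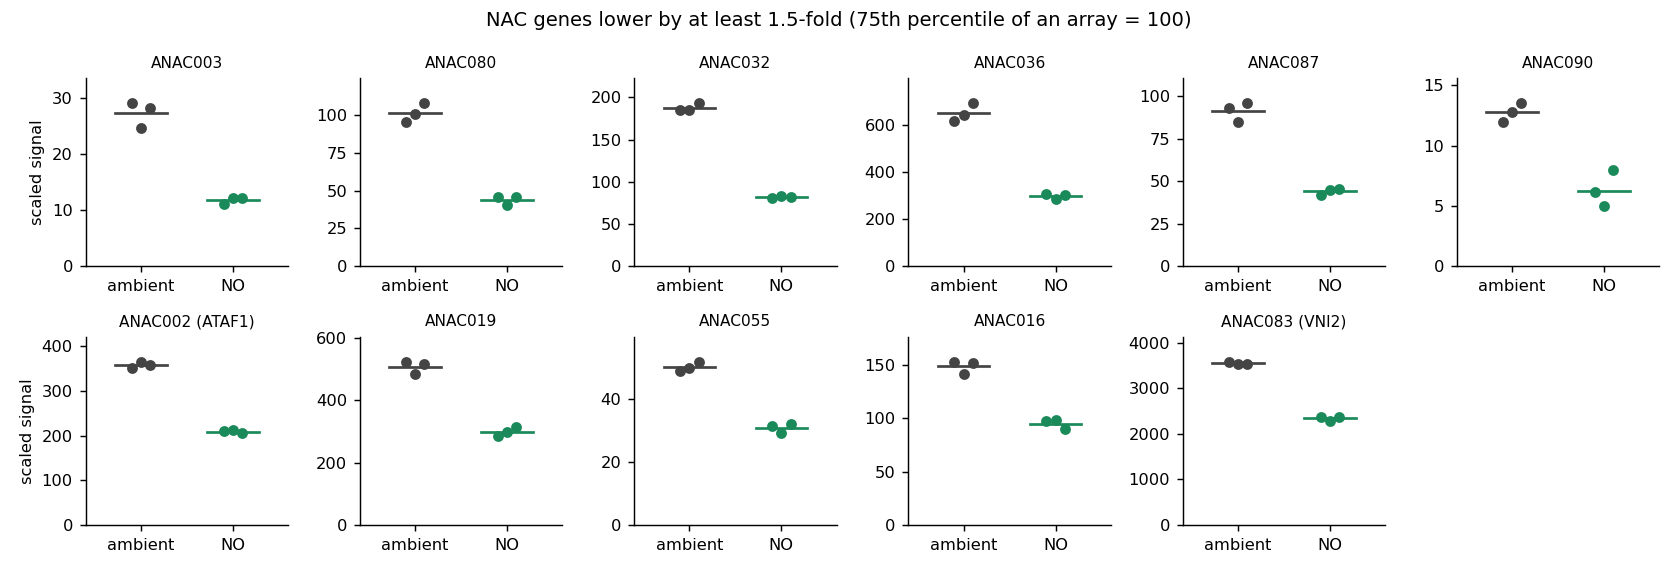
Scaled signal (y axes, 100 is each array's 75th percentile, axes start at 0) of the 11 NAC genes that passed the test and were lower by at least 1.5-fold, with 1 point for each of the 3 ambient (grey) and 3 NO (green) arrays and a line at the geometric mean. In every panel the 3 NO points lie below the 3 ambient points.

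Most membrane-tethered factors fell, by small amounts. Of 14 tested members, 11 fell, 1 rose and 2 did not pass, beside 32.4% lower and 25.8% higher of all genes. The median log2 change was -0.29. Only ANAC016 (AT1G34180), a promoter of chlorophyll breakdown and ageing, fell by at least 1.5-fold. It gave 153, 142 and 152 in ambient air and 97.7, 98.6 and 89.6 in NO, a fall of 1.56-fold (log2 change -0.65 ± 0.06, adjusted p = 0.00020). ANAC017 (AT1G34190), the neighbouring gene, encodes a factor anchored in the endoplasmic reticulum that is released when mitochondria are disturbed. Its signals of 697, 632 and 719.6 in ambient air and 667, 698 and 732 in NO overlapped, with a log2 change of 0.03 ± 0.07 (adjusted p = 0.69, 95% confidence interval -0.13 to 0.20), and the sign was negative under 4 of 16 other settings.

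ANAC013 (AT1G32870), which acts in the same mitochondrial response, gave 216, 213 and 231 against 159, 152 and 163, a fall of 1.39-fold (log2 change -0.48 ± 0.06, adjusted p = 0.00051). NTM1 (ANAC068, AT4G01540), a factor tied to cell division, gave 87.3, 83.0 and 88.1 against 58.6, 62.2 and 65.7, a fall of 1.39-fold (log2 change -0.47 ± 0.06, adjusted p = 0.00072). Neither gene had overlapping groups. Changes of -0.46 for ANAC062, a cold-activated factor of the unfolded protein response, of -0.33 for TIP (ANAC091), which binds a viral coat protein, and of -0.28 for ANAC089, a factor of endoplasmic reticulum stress, also passed. The value of ANAC089 rests on 5 arrays, because its spot on NO array 1 was left out as an outlier, and in the authors' table the log2 change was -0.55 and did not pass (adjusted p = 0.077). ANAC053 and ANAC078, a pair known to drive the proteasome stress response, were at -0.21 and -0.30 and passed, although a second probe of ANAC078, at -0.25, did not (adjusted p = 0.11). NTL8 (ANAC040), which acts in salt responses and flowering, was the member that rose. It gave 6.86, 10.3 and 9.04 against 12.9, 11.4 and 11.6 (log2 change 0.47 ± 0.15, adjusted p = 0.029). It did not pass under 7 of 16 other settings, among them leaving out ambient array 3 or any NO array (adjusted p = 0.055 to 0.090).

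Most secondary wall genes rose. These factors switch on cellulose, xylan and lignin deposition in fibres (NST genes) and vessels (VND genes), SND2 and SND3 act below them, and XND1 holds xylem differentiation back. Of 11 tested members 8 rose, 1 fell and 2 did not pass, beside 25.8% higher and 32.4% lower of all genes. The median log2 change was 0.65, and 7 rose by at least 1.5-fold, as did 11.5% of all genes. Both the 8 and the 7 include VND3, which entered the test only through its NO arrays. Of the 9 that were well above background on all 6 arrays, 7 rose and 1 fell, beside 4410 higher and 5936 lower of 17808 such genes. VND6 (ANAC101) and VND7 (ANAC030) were too dim for a test.

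NST3 (ANAC012, AT1G32770), the main fibre switch, gave 47.9, 39.1 and 36.5 in ambient air and 96.5, 78.8 and 77.6 in NO, a rise of 2.05-fold (log2 change 1.04 ± 0.13, adjusted p = 6.3e-04). SND2 (ANAC073, AT4G28500) gave 27.0, 29.5 and 23.4 against 52.5, 50.6 and 52.2, a rise of 1.95-fold (log2 change 0.97 ± 0.09, adjusted p = 1.7e-04). SND3 (ANAC010, AT1G28470) gave 9.59, 11.8 and 9.46 against 22.3, 16.0 and 18.6, a rise of 1.84-fold (log2 change 0.88 ± 0.14, adjusted p = 0.0020). In each of these 3 genes the lowest NO array lay above the highest ambient array.

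NST2 (ANAC066, AT3G61910), known for wall thickening in anthers, gave 18.3, 14.8 and 12.8 in ambient air and 27.7, 23.1 and 26.7 in NO, a rise of 1.70-fold (log2 change 0.77 ± 0.14, adjusted p = 0.0034). VND2 (ANAC076, AT4G36160) gave 4.60, 3.16 and 2.59 against 6.52, 5.83 and 6.02 (log2 change 0.87 ± 0.20, adjusted p = 0.0086). VND4 (ANAC007, AT1G12260) gave 4.71, 4.68 and 4.14 against 8.23, 6.96 and 6.13 (log2 change 0.65 ± 0.11, adjusted p = 0.0030). VND3 (ANAC105, AT5G66300), well above background on 1 of the 3 ambient arrays, gave 2.73, 2.62 and 2.85 against 5.00, 3.73 and 3.85 (log2 change 0.61 ± 0.12, adjusted p = 0.0043). In VND2 and VND4 the lowest NO array lay above the highest ambient array. VND3 entered the test only through its NO arrays, so the gap between its groups carries no weight here.

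NST1 (ANAC043), which acts with NST3 in fibres, was at 0.58 ± 0.19 (adjusted p = 0.035), and did not pass without ambient array 2 or 3 or NO array 1 or 2 (adjusted p = 0.061 to 0.10, log2 change 0.38 without ambient array 3). VND1 (ANAC037) and VND5 (ANAC026) were at 0.32 and 0.49 and did not pass, although VND1 passed without ambient array 3 (log2 change 0.52, adjusted p = 0.038). XND1 (ANAC104, AT5G64530), the repressor of xylem differentiation, went down. It gave 371, 377 and 398 in ambient air and 265, 270.1 and 269 in NO, a fall of 1.42-fold (log2 change -0.51 ± 0.05, adjusted p = 0.00022). With normexp background correction, 4 of the 8 wall genes that rose still passed, namely NST3, SND2, SND3 and NST2, whereas VND2, VND3, VND4 and NST1 did not, with log2 changes of 0.22, -0.02, 0.20 and 0.13. The fall of XND1 passed under all 16 other settings, as did the rises of NST3, SND2, SND3 and NST2.

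**Figure D3:**
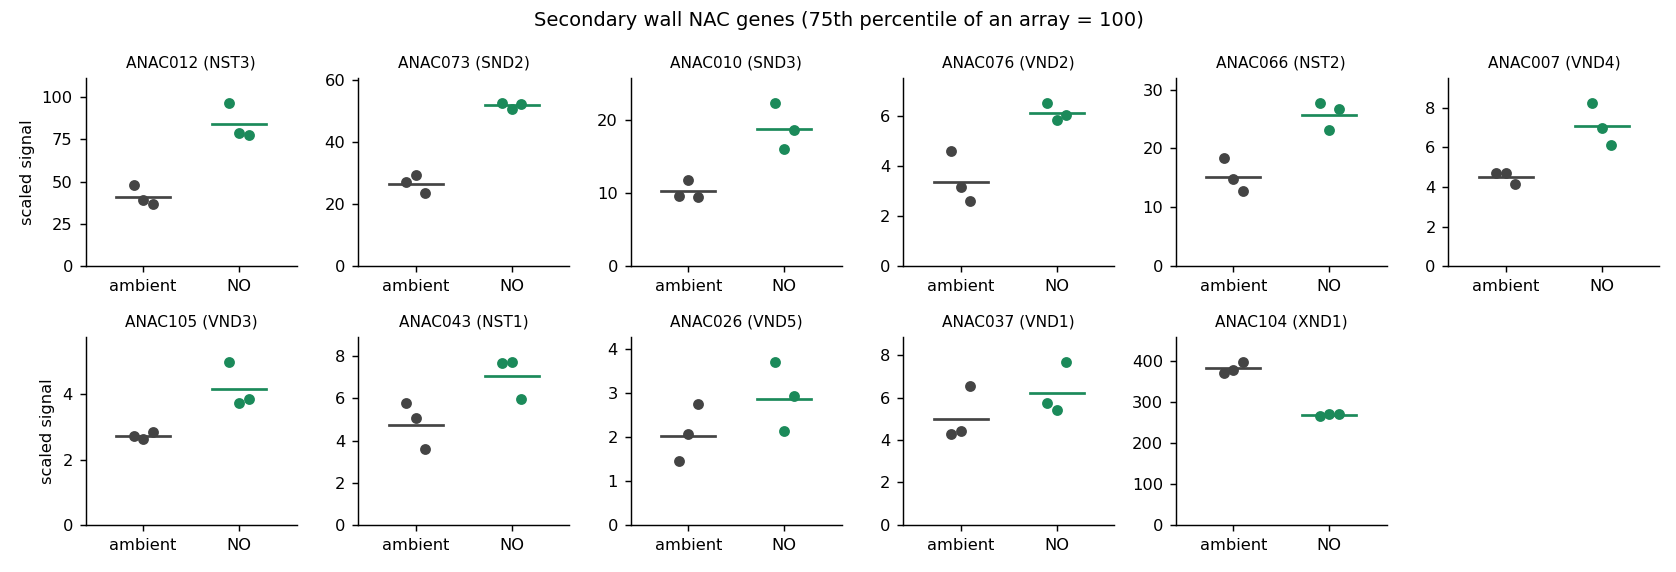
Scaled signal (y axes, 100 is each array's 75th percentile, axes start at 0) of the 11 tested secondary wall NAC genes, with 1 point for each of the 3 ambient (grey) and 3 NO (green) arrays and a line at the geometric mean. The 3 NO points lie above the 3 ambient points in 8 panels, overlap them in VND5 and VND1, and lie below them in XND1.

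**Figure D4:**
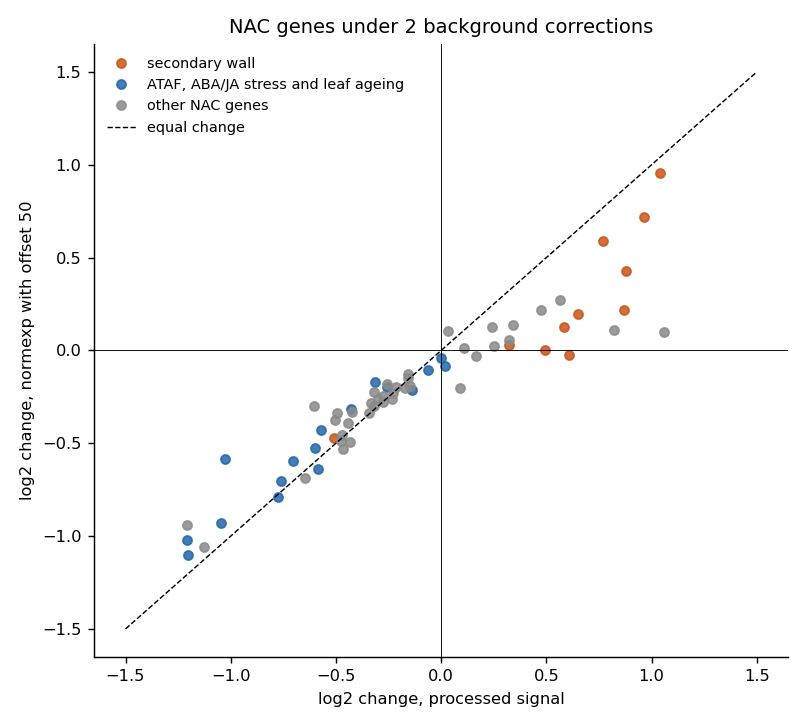
Log2 change of the 67 tested NAC genes in the processed signals (x axis) and after normexp background correction with an offset of 50 (y axis), with 1 point for each gene coloured by role and a dashed line at equal change. Most genes that fell lie near the dashed line, with ANAC090 (-1.03 and -0.59) as the largest departure, while most genes that rose lie below it, with VND3 at 0.61 on the x axis and -0.02 on the y axis.

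Vascular marker genes did not share a direction. CESA7 and XCP1, themselves genes of the secondary wall, were higher, the phloem genes APL and SUC2 were lower at -0.32 and -0.17, and the procambium gene ATHB8 was at 0.22 and did not pass (adjusted p = 0.056). All 5 were well above background on every array. Their summed signal, of which SUC2 makes up the larger part, was 1640 to 1720 in ambient air and 1690 to 1710 in NO, although CESA7 alone had a geometric mean of 143 in ambient air and 287 in NO. Flower markers were present in the rosettes, with 3 of 4 higher (AP1, PI and AP3, at 0.45, 0.43 and 0.43) and AG at -0.20 not passing. Their sum was 53.7 to 67.0 in ambient air and 75.8 to 78.5 in NO. Of the 4 shoot meristem markers, STM and KNAT1 were higher at 0.50 and 0.31, WUS was dim in ambient air, well above background on 0 of 3 arrays, and did not pass (adjusted p = 0.068), and CLV3 was not well above background on any array; the sum was 161 to 166 against 210 to 230. Of the 4 root markers only PYK10, at 0.94, was well above background on every array, with a sum of 6.27 to 9.90 against 12.2 to 15.7. The part of flower, meristem or root tissue in the NAC values was not tested.

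Of the 5 NAC genes of the phloem list 2 were too dim for a test, and ANAC045 was near the lower limit of detection. ANAC028 and ANAC057 were well above background on all 6 arrays. ANAC045 (AT3G03200), which acts in the loss of the nucleus from sieve elements, was well above background on 0 of 3 ambient and 3 of 3 NO arrays. Its signals were 0.872, 2.27 and 1.94 in ambient air and 4.14, 3.04 and 2.75 in NO. Against the lowest signal well above background it was at least 1.48-fold higher (adjusted p = 0.041 in the fit), and it passed under 7 of 15 other settings. Without ambient array 3 or any NO array it did not pass (adjusted p = 0.054 to 0.12). ANAC028 (AT1G65910) gave 8.82, 6.82 and 5.50 against 9.45, 10.4 and 10.9, a rise of 1.48-fold (log2 change 0.56 ± 0.16, adjusted p = 0.024) that did not pass under 7 of 16 other settings, among them leaving out ambient array 2 or NO array 2 or 3 (adjusted p = 0.064 to 0.075). ANAC057 (AT3G17730) gave 8.73, 2.60 and 2.99 against 4.10, 4.49 and 4.46, with overlapping groups (log2 change 0.09 ± 0.43, adjusted p = 0.87). Without ambient array 1, which gave the 8.73, its log2 change was 0.64 and passed (adjusted p = 0.0021).

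The growth and flowering list was mixed, with 3 of 6 tested members lower, 2 higher and 1 not passing. Among all genes 32.4% were lower and 25.8% higher. ANAC036 (AT2G17040), a factor that dwarfs plants when overproduced, was among the strongest falls of the family. It gave 618, 644 and 694 in ambient air and 305, 287 and 302 in NO, a fall of 2.19-fold (log2 change -1.13 ± 0.06, adjusted p = 2.0e-05). ANAC050 (AT3G10480) and ANAC052 (AT3G10490) are adjacent genes whose proteins delay flowering together with a histone demethylase. ANAC052 gave 251, 236 and 244 against 177, 182 and 181 (log2 change -0.43 ± 0.05, adjusted p = 0.00040). ANAC050 gave 169, 171 and 156 against 122, 124 and 124 (log2 change -0.42 ± 0.05, adjusted p = 0.00066). The pair fell by almost the same amount, although the other tested probe of ANAC050 was at -0.11 and did not pass (adjusted p = 0.38). LOV1 (ANAC034), a repressor of flowering, was at 0.24 and passed (adjusted p = 0.0085), but not with normexp (0.12, adjusted p = 0.15), scaling to the median (adjusted p = 0.055) or a replicate block by source-name numbers (adjusted p = 0.078). ANAC096 (AT5G46590), which acts with abscisic acid factors in drought, gave 1.98, 1.12 and 2.12 against 2.81, 3.75 and 2.45, close to background (log2 change 0.82 ± 0.27, adjusted p = 0.036), and it passed under 6 of 15 other settings. Without ambient array 2 its log2 change was 0.53 (adjusted p = 0.055), and without NO array 1 or 2 it did not pass either (adjusted p = 0.076 and 0.11).

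Organ boundary genes changed little. NAC1 (ANAC021, AT1G56010), known for auxin signalling in lateral roots, gave 264, 271 and 300.3 in ambient air and 225, 219.9 and 212 in NO (log2 change -0.34 ± 0.06, adjusted p = 0.0041). CUC3 (ANAC031, AT1G76420), which separates organs at the shoot tip, gave 13.2, 12.4 and 12.0 against 10.6, 11.0 and 9.90 (log2 change -0.26 ± 0.06, adjusted p = 0.012). With normexp background correction CUC3 missed the threshold (adjusted p = 0.099). CUC2 (ANAC098, AT5G53950) gave 3.21, 3.60 and 3.54 against 4.15, 4.70 and 3.52, with overlapping groups (log2 change 0.25 ± 0.11, adjusted p = 0.092). CUC1 (ANAC054), its partner in separating organs, was at 0.32 ± 0.17 and did not pass. Without NO array 3 CUC2 and CUC1 were at 0.36 and 0.49 and passed (adjusted p = 0.018 and 0.023). The microRNA miR164 is known to target the transcripts of CUC1, CUC2, NAC1, ANAC080 and ANAC100. Set side by side after their values had been seen, NAC1, ANAC080 and ANAC100 fell, and CUC1 and CUC2 did not pass.

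The seed-coat factors NAM (ANAC018, AT1G52880) and ANAC056 (AT3G15510) were both measured in the rosettes. NAM gave 711, 745 and 790.1 in ambient air and 558, 558 and 532 in NO, a fall of 1.36-fold (log2 change -0.45 ± 0.06, adjusted p = 0.00078). ANAC056 gave 141, 126 and 127 against 107.1, 125 and 121, which did not overlap, with a log2 change of -0.16 ± 0.08 that did not pass (adjusted p = 0.13). SOG1 (ANAC008, AT1G25580), the central regulator of the plant DNA damage response, gave 139, 125 and 125 against 112, 114 and 105. Its fall of 1.18-fold (log2 change -0.23 ± 0.07, adjusted p = 0.020) did not pass under 4 of 16 other settings, among them leaving out ambient array 1 (adjusted p = 0.055) or NO array 3 (adjusted p = 0.065). ANAC082 (AT5G09330), a nucleolar stress factor, gave 224, 229 and 227 against 205, 184 and 226, with overlapping groups (log2 change -0.15 ± 0.08, adjusted p = 0.15). Without NO array 3, which gave the 226, it passed at -0.22 (adjusted p = 0.040).

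Of 26 members without a known role in these lists 8 were tested. Of the 8, 4 were lower, 1 was higher and 3 did not pass, beside 32.4% lower and 25.8% higher of all genes. Among the 3, ANAC058 was at -0.17 (adjusted p = 0.11) and passed under 5 of 16 other settings. Its second tested probe was at -0.40 and passed (adjusted p = 0.018). ANAC003 (AT1G02220), whose role is not described here, had the largest fitted fall of the family, within the error of those of ANAC080 and ANAC032. It gave 29.1, 24.6 and 28.2 in ambient air and 11.1, 12.2 and 12.2 in NO, a fall of 2.31-fold (log2 change -1.21 ± 0.08, adjusted p = 4.5e-05), and its other tested probe gave -1.16. ANAC074, ANAC084 and ANAC041 fell by 0.50, 0.32 and 0.16 on the log2 scale, and ANAC097 was at 0.34 and passed, but not with normexp (0.14, adjusted p = 0.057) or quantile normalization (0.26, adjusted p = 0.055). Leaving out any of 4 arrays ended the call of ANAC074 (ambient arrays 1 and 2, NO arrays 1 and 2) and of ANAC041 (ambient arrays 1 and 3, NO arrays 1 and 2), with adjusted p of 0.061 to 0.086 and of 0.077 to 0.10. A less bright probe of ANAC041 was at 0.12 and did not pass (adjusted p = 0.23), the only case among 20 members with several tested probes in which probes differed in sign.

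Of 28 members with a probe but no test, 20 were not well above background on any array, and 8 on too few. By role they were 4 root cap genes, 2 each of the secondary wall, phloem and DNA damage lists, 1 each of the growth and seed lists, and 16 without a listed role. All 4 root cap genes (SMB, BRN1, BRN2 and FEZ) were among the 20. ANAC027, ANAC044 and ANAC048 had no matched probe.

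Genes known to act downstream of NAC factors were compared in 6 lists, in which 35 of 49 tested genes (71.4%) passed, 21 higher and 14 lower, beside 58.2% of all genes, 25.8% higher and 32.4% lower. The secondary wall list, the known targets of the NST and VND genes, moved in the direction of those genes. Of 14 genes 13 rose and MYB83 did not pass at -0.10, and the median log2 change was 0.74. MYB103, a regulator of cellulose and lignin genes, rose by 2.37-fold (log2 change 1.25 ± 0.10, adjusted p = 8.3e-05). MYB63, a lignin regulator, gave 14.4, 14.9 and 15.0 in ambient air and 25.9, 24.0 and 25.7 in NO, a rise of 1.70-fold (adjusted p = 5.2e-05). CESA8 and CESA4, subunits of the secondary wall cellulose synthase, rose by 1.98-fold and 1.82-fold. CESA8 gave 176, 182 and 165 against 367, 327 and 340.4, with no overlap.

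Chlorophyll breakdown and senescence genes, which lie downstream of NAC factors of leaf ageing, gave 6 of 9 lower, none higher and 3 not passing, with a median log2 change of -0.30. In this list 66.7% passed, whereas among all genes 58.2% passed and 32.4% were lower. SAG12, a cysteine protease gene that marks ageing leaves, was 27.6-fold lower, with 3744, 3645 and 3794 in ambient air and 137, 127 and 142 in NO. The nuclease gene BFN1 gave 53.7, 56.6 and 54.8 against 23.3, 19.5 and 23.9, a fall of 2.48-fold. PPH and NYE1, which start chlorophyll breakdown, both fell by 1.74-fold. NYC1, SAG113 and the abscisic acid synthesis gene NCED3 did not pass, at 0.02, 0.06 and 0.08.

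The mitochondrial stress genes that ANAC013 and ANAC017 are known to activate did not share a direction. Of 10 tested genes 2 rose, 4 fell and 4 did not pass, with a median log2 change of -0.12. The share that passed, 60%, was near the 58.2% of all genes. GSTU24, a glutathione transferase gene, fell by 2.71-fold, and AOX1A, the alternative oxidase gene, gave 1269, 1145 and 1272 in ambient air and 836, 810.4 and 809 in NO (log2 change -0.58 ± 0.06). NDB2, an alternative NADH dehydrogenase gene, was at -0.57 and passed, whereas SOT12, a sulfotransferase gene, was at 0.51 and passed.

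Among 5 salicylic acid and jasmonate genes known to lie downstream of ANAC019, ANAC055 and RD26, 4 rose and SAGT1 fell. Of all genes 25.8% were higher and 32.4% lower. BSMT1, which methylates salicylic acid, was well above background on 0 of 3 ambient arrays, with signals of 0.967, 1.94 and 0.888 there and 13.4, 11.6 and 12.1 in NO, at least 5.69-fold higher. The jasmonate-induced genes VSP2 and VSP1 rose by 1.81-fold and 1.72-fold, while SAGT1, a salicylic acid glucosyltransferase gene, was at -0.40 and ICS1, the salicylic acid synthesis gene, at 0.21. The 3 NAC genes themselves were lower. Of 8 proteasome genes, downstream of ANAC053 and ANAC078, 3 fell, 1 rose and 4 did not pass, with a median log2 change of -0.03. The share that passed, 50%, was below the 58.2% of all genes. RPN3a, PAE1 and RPT2a were at -0.32, -0.29 and -0.22. Of 3 tested DNA damage genes below SOG1, 1 rose (AT2G31320, a poly(ADP-ribose) polymerase gene, at 0.34) and 2 did not pass.

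**Figure D5:**
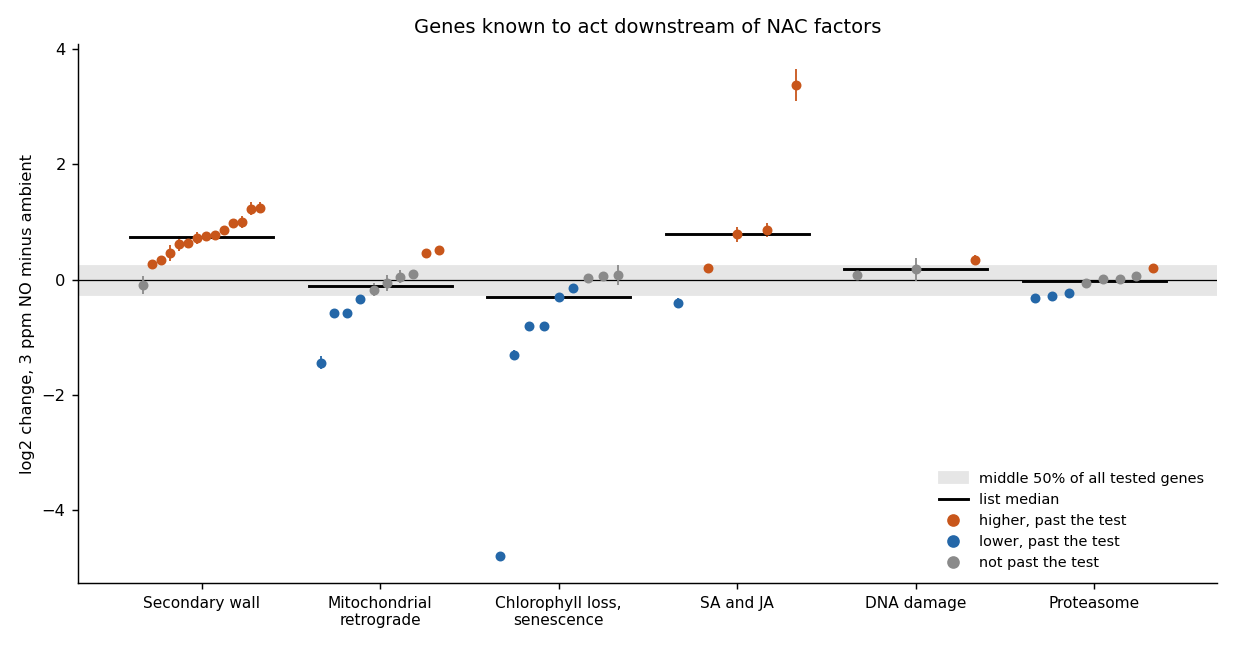
Log2 change between 3 ppm NO and ambient air (y axis) of 49 tested genes known to act downstream of NAC factors, in 6 lists (x axis), with 1 point for each gene, its standard error as a line, black bars at the list medians and a grey band over the middle 50% of all tested genes. The secondary wall genes lie above the band except MYB83, SAG12 is the lowest point at -4.79, and the highest point is the fitted value of BSMT1, for which only a bound is measured.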

How the data were processed

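RNA of 3 ambient and 3 NO samples was measured on 1-colour Agilent arrays. Per the file headers, the authors deposited scanner output from Agilent Feature Extraction 10.7.3.1, whereas the submitters' processing notes name version 10.5. The column used is the processed signal, an intensity on a linear scale per spot that the scanner software had background-corrected. The authors also deposited a table of normalized log2 values. For a comparison, each probe's median over the arrays was subtracted from the scaled log2 signals described below. Each array then correlated with the table at 0.9999 or more, and 36.9% to 98.1% of its probes lay within 0.01. The table's own array medians were -0.07 to 0.04. Its values thus match signals centred per probe on the median, in the direction of the signal. In the values tested here no gene was centred.

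Control spots and outlier spots (5 to 18 an array) were left out. Log2 signals had each array's 75th percentile subtracted, spots of a probe were averaged, and the probe with the highest mean signal stood for a gene; the 75th percentile itself was 715 to 1321. Through transcript accessions and the RefSeq gene table of assembly TAIR10.1, which served for names and neighbours only, 34285 of 43603 probes matched 25383 genes. Genes entered the test when either group had the gene's probe well above background on each of its 3 arrays. The test was limma 3.58.1 (lmFit and eBayes) in R 4.3.3, two-sided, over all 18614 genes, and p-values adjusted by Benjamini-Hochberg were held against 0.05. A probe that a group's arrays never showed well above background has only a lower bound as its fold, set against the dimmest signal that was well above background on each array. The procedure was also tested on simulated data.

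Members, roles, targets and markers were chosen with earlier results of these data known. Every member could be named. Values on all arrays follow members past the threshold by at least 1.5-fold (at most 30), up to 3 members of each role with the smallest adjusted p, and up to 4 genes of each other list. For ATAF2, ANAC017 and NTL8 they are given in addition, chosen after the values were seen. The alternatives were normexp with an offset of 50, other scalings, the authors' table, other filters on dim probes, the mean of a gene's probes, replicate blocks and each array left out. Normexp used the median spot signal and the median background, since a mean signal was not among the columns used.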

Additional observations from a re-analysis of the deposited data

Results flagged for a closer look

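Among data outside the comparison, the synthetic spike-in control probes differed between the groups. Of 10 such probes 7 were measured, and all 7 were brighter on every NO array than on every ambient array, by 10.4-fold to 49.1-fold. These probes were in no scaling or test of the NAC genes, and their part in those values was not tested.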

How the results depend on the processing

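The falls of the NAC genes held better than the rises: 23 of 36 falls and 4 of 14 rises passed under all 16 alternatives. The same count was not made over all genes, so the contrast is not shown to be particular to the family. The count of higher NAC genes, 14 in the report, was 5 with normexp, 9 with quantile normalization and 9 without a filter on dim probes, while lower genes numbered 32 with normexp. The offset of normexp compresses changes of dim probes by construction. Leaving out each array in turn gave 10 to 16 higher and 33 to 35 lower NAC genes, 31 to 34 downstream genes, and 9475 to 9745 genes in all, beside 10830. Same-numbered arrays did not deviate together by their titles (correlations of -0.08, -0.04 and 0.05). With the title numbers as a replicate block 12 NAC genes were higher and 33 lower, with 10049 of all genes; a replicate block by source-name numbers gave 15, 25 and 7103. Of the members described with values on every array, ANAC057 reversed with normexp (-0.20), with quantile normalization (-0.069) and without ambient replicate 2 or 3 (-0.23 and -0.13), was 0.64 without ambient replicate 1, and VND3 (ANAC105) reversed with normexp (-0.025). ANAC017, close to 0 throughout, was at -0.0036 with quantile normalization, -0.040 with scaling to the median, -0.021 without ambient replicate 2 and -0.00014 without NO replicate 3; the cause was not tested. Without ambient array 3 the NAC genes past the threshold with a fitted change of at least 2-fold numbered 5, and with normexp 3, beside 8. Signal over background limits, among others, VND1 to VND5, NST1, CUC2, ANAC038, ANAC045, ANAC057, ANAC061 and ANAC096.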

Other observations

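All 4 guard cell marker genes (KAT1, MYB60, FAMA and HT1) were lower in NO, beside 32.4% of all genes, with a median log2 change of -0.30, and FAMA, a regulator of the last division of the guard cell lineage, was at -0.67. The summed signal of the 4 was 413 to 429 in ambient air and 320 to 328 in NO.

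Adjacent NAC genes did not always share a change. The family has 11 pairs of neighbours among these members, of which 7 have both genes tested. In 4 of the 7 both genes fell, and these were NAM with ANAC019, ANAC050 with ANAC052, ANAC052 with ANAC053, and NTM1 with ANAC069. In the other 3 pairs 1 gene fell and the other did not pass. The log2 changes were -0.65 for ANAC016 and 0.03 for ANAC017, -0.43 for ANAC046 and 0.00 for ANAC047, and -0.70 for ANAC055 and -0.16 for ANAC056. The difference within a pair was not tested.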
